A study of Mus musculus with 4 samples.

Results

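The Hox genes were examined for binding of the transcription factor NKX2.2 in alphaTC6 cells. Members were listed by name and no measured value decided membership, but earlier results of these data were known when they were chosen. They were 38 Hox genes of the 4 mouse clusters, out of 21887 protein-coding genes in the gene table used. The Hoxa cluster lies on chromosome 6 (10 genes), Hoxb on chromosome 11 (10 genes), Hoxc on chromosome 15 (9 genes) and Hoxd on chromosome 2 (9 genes). Every one of the 38 symbols was found in the table.

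The assay was ChIP-seq, in which DNA held by a factor is pulled down with an antibody, sequenced, and compared with input DNA that was not pulled down. The libraries were 2 of anti-NKX2.2 ChIP and 2 of input, all from wild-type alphaTC6 cells with no treatment named. AlphaTC6 is an established mouse alpha cell line, so all libraries come from cultures of a single clonal tumour line. What the authors deposited was 1 list of 7384 peak summits for the series, of which 7380 lay on assembled chromosomes. A summit marks the point of a peak where enrichment is highest, and its score is the authors' own value, taken as −log10 of the q-value of ChIP against input. Scores ran from 2.03 to 1648 with a median of 13.7. The list holds no value per library, so depth is unknown, no value below has a replicate error, and no test between groups of samples was possible. It also holds no expression values, so the alpha cell label could not be checked against marker genes, and Hox expression was not analysed here.

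Hox genes encode homeodomain transcription factors that give cells their position along the head-to-tail axis of the embryo. Their order along a cluster follows their order of expression along the body, from anterior genes with low numbers to posterior genes with high numbers. In many cells where they are silent, the clusters are covered by Polycomb repressive chromatin. NKX2.2 is itself a homeodomain protein, but of the NK2 class, and it is needed for the formation of several islet endocrine cell types. Hox genes are thus homeobox genes outside the usual set of islet identity genes.

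No NKX2.2 summit lay in or within 10 kb of any of the 38 Hox genes, and 0 lay within 100 kb. Among all protein-coding genes, 25.8% had a summit within 10 kb and 55.3% had one within 100 kb. At those shares 9.82 and 21.0 of 38 genes would have had one. The Hox genes span 1784 to 44009 bp, and of the 14013 protein-coding genes in that range of length 25.3% had a summit within 10 kb. A count of 0 among 38 genes allows a share of up to 7.89%, and 0 among 7380 placed summits allows up to 0.0407% of the list. These limits cover counting error and treat genes as independent, which neighbours in a cluster are not: the 38 genes lie in 4 regions and share their nearest summits. A missing summit means that no peak was called, not that binding was absent.

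To show what the promoters without a summit look like beside bound ones next door, 5 promoters are printed, each as the 250 bases before the transcription start (RefSeq, GRCm38.p6), 5′ to 3′ on the gene's own strand. Hoxa2 and Hoxd11 each hold 1 CACTT core, the core of the site bound by NK2-class homeodomains, shown in capitals as CACTT or its complement AAGTG. The Hoxd11 sequence is that of its upstream start at 74679558, and another start of the gene, at 74682323, is not printed. Hoxa13 holds no such core and is the most GC-rich of the Hox promoters in the table, which covers 22 of the 38 genes, at 81.0% for the full promoter. Hibadh and Atp5g2 are genes beside the Hoxa and Hoxc clusters that do have a summit there, and their capitals mark the summit base with 5 bases on each side.

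Hoxa2 (chr6:52164832-52165081, minus strand): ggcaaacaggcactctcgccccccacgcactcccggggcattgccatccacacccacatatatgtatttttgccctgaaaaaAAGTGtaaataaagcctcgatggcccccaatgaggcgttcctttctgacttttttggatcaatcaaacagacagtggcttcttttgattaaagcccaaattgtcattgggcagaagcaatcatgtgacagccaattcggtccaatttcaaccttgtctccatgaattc

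Hoxd11 (chr2:74679308-74679557, plus strand): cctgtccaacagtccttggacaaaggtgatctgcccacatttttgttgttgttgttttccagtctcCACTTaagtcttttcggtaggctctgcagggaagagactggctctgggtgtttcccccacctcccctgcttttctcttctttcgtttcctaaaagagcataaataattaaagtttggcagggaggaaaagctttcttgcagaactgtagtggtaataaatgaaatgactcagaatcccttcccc

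Hoxa13 (chr6:52260881-52261130, minus strand): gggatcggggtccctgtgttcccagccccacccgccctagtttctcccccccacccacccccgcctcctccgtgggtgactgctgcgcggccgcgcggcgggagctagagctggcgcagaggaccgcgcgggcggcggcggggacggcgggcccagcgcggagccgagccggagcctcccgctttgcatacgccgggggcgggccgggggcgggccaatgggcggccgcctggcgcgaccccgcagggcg

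Hibadh (chr6:52640301-52640550, minus strand): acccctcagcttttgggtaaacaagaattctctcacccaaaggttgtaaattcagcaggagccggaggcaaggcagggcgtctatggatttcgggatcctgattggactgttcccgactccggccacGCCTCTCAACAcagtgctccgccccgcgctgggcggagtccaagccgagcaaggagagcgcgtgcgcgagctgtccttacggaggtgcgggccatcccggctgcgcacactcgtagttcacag

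Atp5g2 (chr15:102671048-102671297, minus strand): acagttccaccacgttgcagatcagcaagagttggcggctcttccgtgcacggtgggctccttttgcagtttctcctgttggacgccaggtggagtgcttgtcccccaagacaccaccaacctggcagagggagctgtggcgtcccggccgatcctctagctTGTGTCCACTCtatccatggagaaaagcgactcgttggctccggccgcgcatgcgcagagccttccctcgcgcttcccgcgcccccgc

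Distances were then taken gene by gene, from the gene's nearest end to the nearest summit. They ran from 118.2 kb at Hoxb13 to 419.8 kb at Hoxa2, with a median of 265.8 kb. Over all protein-coding genes the median was 71.5 kb. As far from a summit as Hoxb13 were 41.8% of protein-coding genes, counting those on chromosomes without a summit, and 28.2% were as far as the median Hox gene. The distance of a single Hox gene was therefore common, and what the 38 had in common was that each lay beyond 100 kb. All 38 distances came from 6 summits, so the values within a cluster repeat each other.

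**Figure D1:**
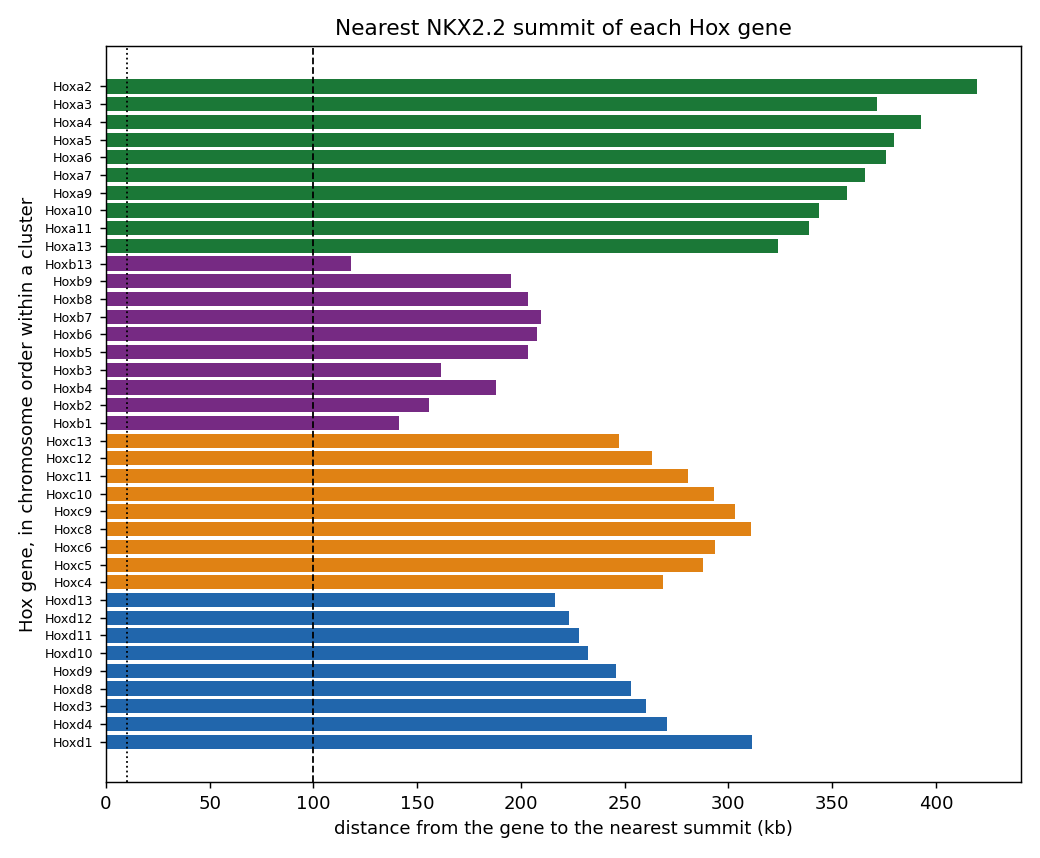
Distance in kb (x axis) from each of the 38 Hox genes (y axis, in chromosome order, coloured by cluster) to its nearest NKX2.2 summit, with dotted and dashed lines at 10 and 100 kb. Every bar passes 100 kb, from 118.2 kb at Hoxb13 to 419.8 kb at Hoxa2.

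The posterior Hox genes, numbered 9 to 13, pattern the trunk and tail, the limbs and the urogenital tract. These 16 genes lay between 118.2 and 357.2 kb from a summit, with a median of 255.2 kb. Hoxb13, a gene of the prostate and hindgut, was the nearest of all 38. It stands apart from the rest of its cluster, and the summit 118.2 kb away had a score of 5.65, rank 6417 of 7380. Hoxd13, which patterns the digits, lay 216.5 kb and Hoxc13, a regulator of hair keratin genes, 247.3 kb from a summit. Hoxa13, needed with Hoxd13 for hand and foot plates, lay 323.7 kb away. Hoxc12 lay at 263.0 kb and Hoxd12 at 223.3 kb. The limb genes Hoxa11 and Hoxd11 lay at 338.8 and 227.8 kb, and Hoxc11 at 280.7 kb. Hoxa10 and Hoxa9, known in blood progenitors and leukaemia, lay at 343.7 and 357.2 kb. The remaining posterior genes were Hoxb9 (195.2 kb), Hoxc9 (303.2 kb), Hoxc10 (293.0 kb), Hoxd9 (246.0 kb) and Hoxd10 (232.5 kb).

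The central Hox genes, numbered 5 to 8, act mainly in the neck and thorax. The 11 genes lay 203.3 to 380.0 kb from a summit, with a median of 288.0 kb. Hoxa5, which acts in lung and cervical spine development, lay at 380.0 kb, and Hoxb5 at 203.5 kb. Hoxc5 lay at 288.0 kb. Hoxa6 and Hoxa7 were at 375.9 and 366.0 kb, Hoxb6, Hoxb7 and Hoxb8 at 208.0, 209.5 and 203.3 kb, Hoxc6 and Hoxc8 at 293.5 and 311.1 kb, and Hoxd8 at 252.9 kb. The Hoxb genes of this group lay near the middle of their gap, nearly as far from the summit on one side as on the other. At Hoxb7, for example, the summits on either side were 209.5 and 219.5 kb away.

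The anterior Hox genes, numbered 1 to 4, pattern the hindbrain and the pharyngeal arches. The 11 genes lay 141.4 to 419.8 kb from a summit, with a median of 268.6 kb. Hoxb1, which specifies hindbrain segment identity, lay at 141.4 kb from a summit inside Skap1 with a score of 20.6. Hoxb2, Hoxb3 and Hoxb4 followed at 155.6, 161.7 and 188.0 kb. Hoxa2, which gives the second pharyngeal arch its identity, was the farthest at 419.8 kb, with Hoxa3 (371.5 kb), needed for thymus and parathyroid formation, and Hoxa4 (392.9 kb) beside it. In the other clusters Hoxc4 lay at 268.6 kb, Hoxd3 and Hoxd4 at 260.3 and 270.3 kb, and Hoxd1 at 311.3 kb. The distances of the anterior, central and posterior genes overlapped widely, while those of some clusters did not overlap at all. Hoxb genes lay at a median of 191.6 kb, Hoxd at 246.0 kb, Hoxc at 288.0 kb and Hoxa at 368.8 kb. The largest Hoxb distance (209.5 kb) was below the smallest of Hoxd (216.5 kb), and the largest Hoxc distance (311.1 kb) was below the smallest of Hoxa (323.7 kb). Hoxc and Hoxd overlapped.

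The surroundings of each cluster differed in where the first summits appeared. The Hoxa genes (chr6:52162417-52260880) lay in a gap of 902.7 kb between 2 summits. On the Hoxa2 side the nearest was at position 51681917 with a score of 45.9, 480.5 kb out and 91.2 kb from Snx10. On the Hoxa13 side it was inside Hibadh, which encodes an enzyme of valine breakdown, at 52584590 with a score of 31.0. Both scores were above the list's median.

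The Hoxb genes (chr11:96194316-96368254) lay in the shortest of the 4 gaps, 433.5 kb. Its borders were a summit 451 bp from Atp5g1 at position 96076145, with a score of 5.65, and the summit inside Skap1 at 96509615. Skap1 encodes an adaptor protein of T cell signalling and held a stronger summit further in, at 96656066 with a score of 169.3, rank 193. That summit lay 287.8 kb from Hoxb1 and was the highest-scoring of the 35 summits within 1000 kb of a cluster's outermost genes.

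The Hoxc genes (chr15:102921131-103036856) lay in a gap of 631.6 kb, bordered on the Hoxc13 side by a summit at 102673784 with a score of 5.23. A stronger one, with a score of 50.6, lay just beyond it at position 102671130, 83 bp before the start of Atp5g2 and inside the sequence printed above. On the Hoxc4 side the border was a summit at 103305412 with a score of 11.1, 2.8 kb from Gpr84.

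The Hoxd genes (chr2:74668225-74765142) had the longest gap, 1252.9 kb, and it was lopsided. A summit at 74451727 with a score of 11.6 lay 216.5 kb from Hoxd13, on the far side of Lnpk and 63.1 kb from it. On the Hoxd1 side no summit was listed for 939.5 kb, up to position 75704605 inside Nfe2l2, with a score of 8.14. Stretches without genes on both sides of the Hoxd cluster are known to hold limb and digit enhancers, and 1 summit was listed within 500 kb of the cluster.

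**Figure D2:**
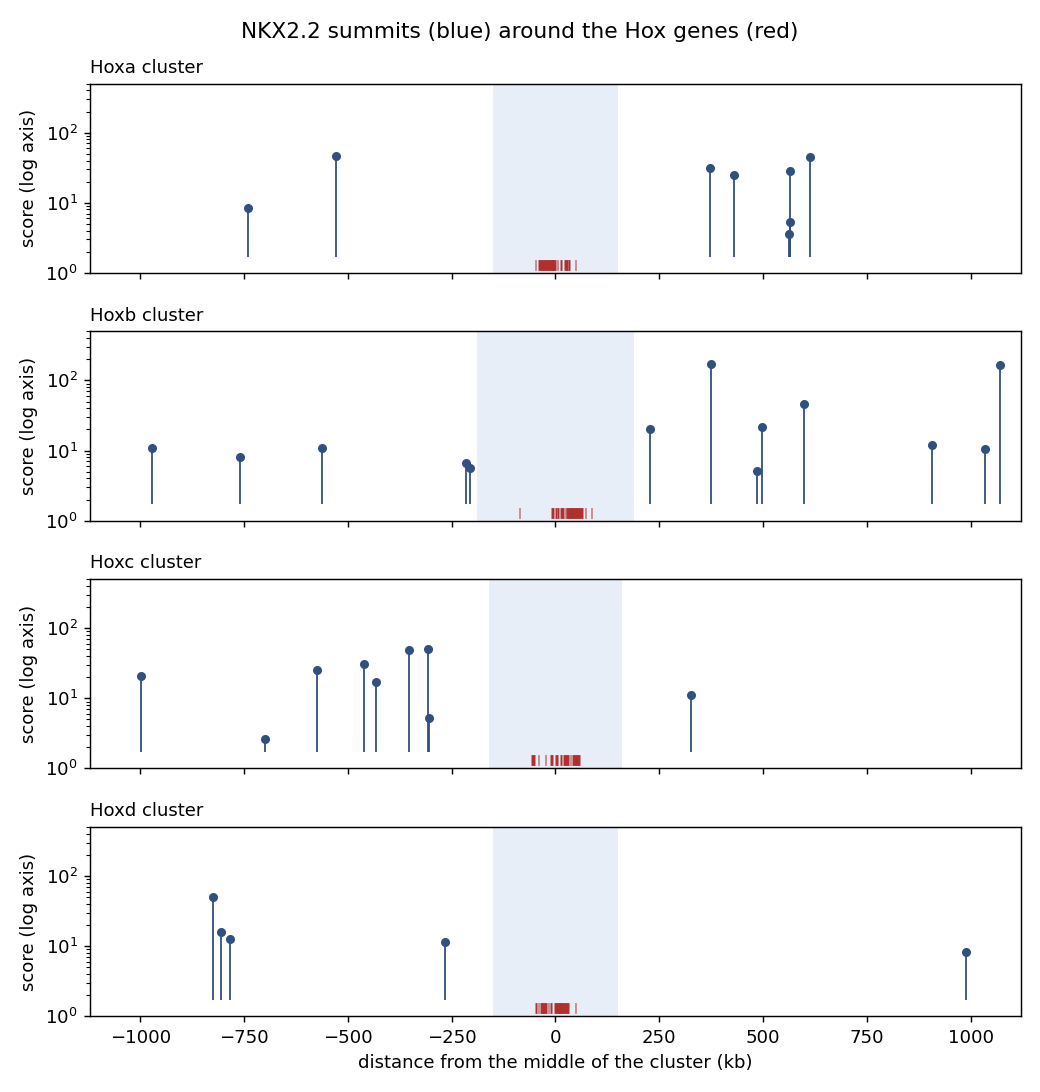
Score of each NKX2.2 summit (blue, log axis) against its distance in kb from the middle of each cluster, with the Hox genes as red blocks and the stretch within 100 kb of the outermost Hox genes shaded. The shaded stretches hold 0 summits in each of the 4 panels. The nearest blue points are in the Hoxb panel, 118.2 and 128.9 kb from Hoxb13 and 141.4 kb from Hoxb1.

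Gap length by itself did not set the clusters apart. The 7360 gaps between neighbouring summits had a median of 95.1 kb and a mean of 343.5 kb. Gaps at least as long as that of Hoxb, Hoxc, Hoxa and Hoxd made up 17.5%, 12.3%, 8.83% and 6.07% of all gaps. They held 75.2%, 67.3%, 59.7% and 51.2% of the sequence between summits, so most sequence lay in gaps as long as these. The Hox gaps were rich in genes, with 12 protein-coding genes wholly inside the Hoxb gap, 13 in Hoxa, 14 in Hoxd and 15 in Hoxc, where the median gap held 1. Gaps with as many genes were 2.74% to 3.94% of all gaps, but 34.1% to 40.4% of the protein-coding genes that lay wholly between summits were in such gaps.

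A comparison by windows gave a similar reading. The 4 stretches from 100 kb before the first to 100 kb after the last Hox gene of a cluster cover 296.9 to 373.9 kb and held 0 summits. At the mean density of the list, 2.73 summits per Mb, they would hold 3.51 summits together, and at the densities of their own chromosomes 4.53. The chromosomes were divided into 8404 windows of 321.3 kb, the mean length of these stretches, and 61.9% of them had no summit. Among the 585 windows with at least 9 protein-coding gene starts, the number in the sparsest of the 4 stretches (Hoxc), 30.8% had none and the median was 2 summits. An empty window of this gene density was thus less frequent than an empty window of any kind, and made up 180 of 585.

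The share of genes reached by a summit was followed over distance. At 200 kb, 6 of the 38 Hox genes had a summit, all in the Hoxb cluster, against 67.2% of protein-coding genes. At 300 kb the number was 25, or 65.8%, against 73.8%. At 400 kb it was 37, or 97.4%, against 78.2%, and at 500 kb all 38 had one, against 81.2%. The Hox genes were below the background at short range and above it at long range, with the change between 300 and 400 kb.

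**Figure D3:**
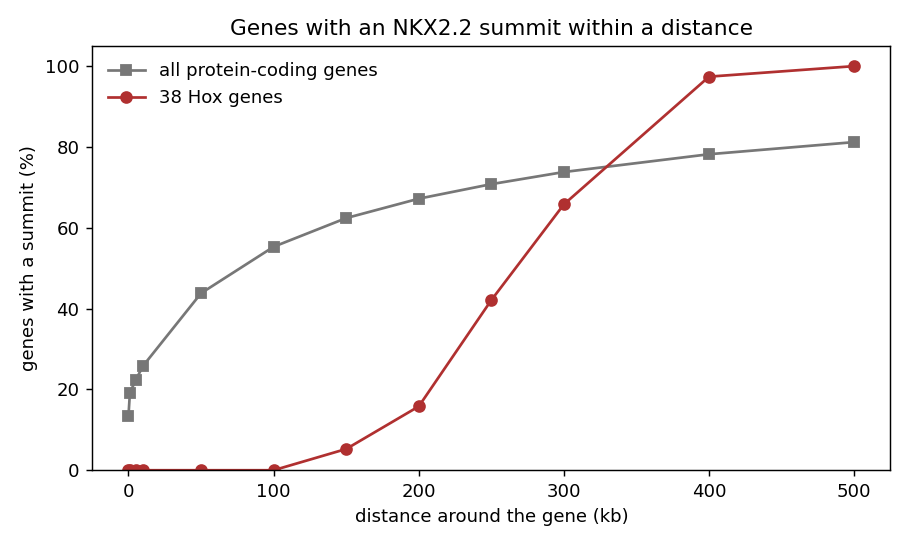
Percent of genes with an NKX2.2 summit (y axis) within a distance around the gene in kb (x axis), for the 38 Hox genes (red circles) and all protein-coding genes (grey squares). The Hox line stays at 0 up to 100 kb, is at 15.8% at 200 kb, and passes the grey line between 300 and 400 kb.

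Transcription starts and promoter sequences were in the reference table for 22 of the 38 genes, with 24 starts. Their distances to a summit ran from 143.9 kb at Hoxb1 to 419.8 kb at Hoxa2. The Hoxb cluster was covered only by Hoxb1, Hoxb4 and Hoxb8, and Hoxc only by Hoxc4. Shares and medians of Hox promoters thus describe mostly Hoxa and Hoxd. Promoters in mammals often lie in CpG islands, where the CG dinucleotide is kept at close to its expected number. The ratio of observed to expected CpG over the 300 bases around the start ran from 0.26 at the upstream start of Hoxd11 to 1.02 at Hoxa5. The median was 0.63 for Hox promoters and 0.57 for all 21263 protein-coding promoters in the table. The GC content had medians of 57.7% and 56.3%.

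Across protein-coding promoters the share with a summit within 1 kb of the start rose with CpG content. It was 4.09% where the ratio was under 0.6 and 19.9% where it was at least 0.6. Of the 24 Hox promoters 12 were in the higher class, among them Hoxa5 (1.02), Hoxa13 and Hoxd3 (0.92 each) and Hoxd13 (0.90), and 0 of these 12 had a summit. The lower class held the other 12, such as Hoxa9 (0.28), Hoxc4 (0.33) and Hoxd4 (0.34), also with 0. Both zeros follow from the lack of any summit within 100 kb of a Hox gene, so they are no separate result.

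**Figure D4:**
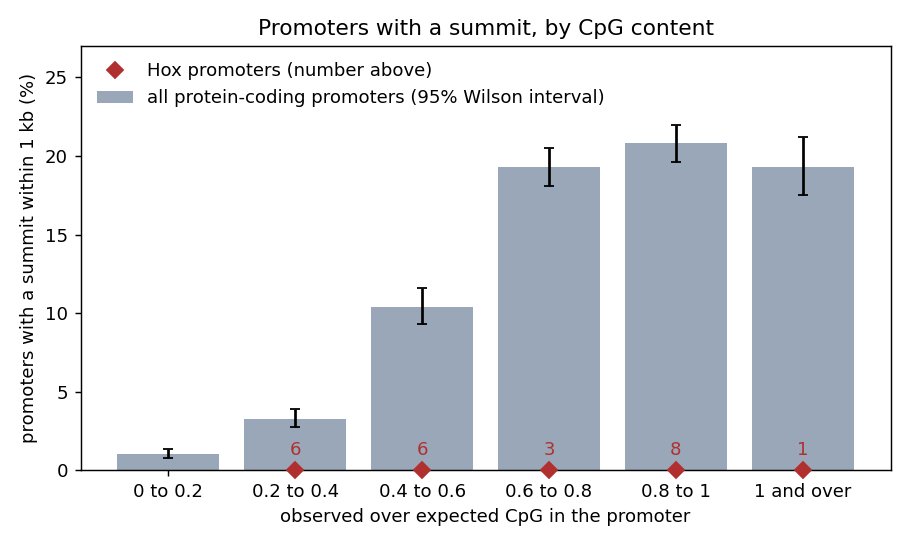
Percent of protein-coding promoters with an NKX2.2 summit within 1 kb (y axis; bars with 95% Wilson intervals) by the observed over expected CpG ratio of the promoter (x axis). Red diamonds are the Hox promoters, with their number above. They are at 0% in each class that holds any, which follows from the lack of any summit within 100 kb of a Hox gene. The bars rise from 1.02% in the lowest class to between 19.3% and 20.8% in the 3 highest.

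The letters of NK2 sites were present in some Hox promoters. The core CACTT, searched on both strands of the 300 bases, was found in 9 of 24 Hox promoters (37.5%), against 46.4% of all 32851 promoters in the table. The 9 belonged to Hoxa2, Hoxa9, Hoxa10, Hoxb1, Hoxb4, Hoxd1, Hoxd8, Hoxd11 and Hoxd12. The longer CCACTT, which contains that core, was in 6 of 24 (25.0%, against 16.9%). TNAAGTG, which contains the core's complement, was in 3 (12.5%, against 11.5%), at Hoxb1, Hoxb4 and Hoxd11. CCACTC, another NK2 core, chosen after the bases around the Atp5g2 summit had been seen, was in 4 (16.7%, against 19.0%). Among the 2475 protein-coding promoters with a summit within 1 kb, CACTT was in 44.4%, CCACTT in 19.2%, TNAAGTG in 9.21% and CCACTC in 27.2%. The core of Hox protein sites, TAAT, was in 19 of 24 Hox promoters (79.2%), against 58.0% of all promoters and 38.8% of those with a summit. CACCC, the core of sites of KLF factors such as KLF4, was in 16 (66.7%), against 57.5% and 63.0%. A match of such short letters is a description and no binding site.

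The clusters also carry noncoding genes. None of the 16 listed had a summit within 100 kb, with distances from 156.2 kb at Hoxb3os to 426.1 kb at Hotairm2. Hotair, a long noncoding RNA of the Hoxc cluster, lay 270.3 kb and Hottip, at the posterior end of Hoxa, 317.0 kb from a summit. The microRNAs of the clusters fall into families that follow the duplication of the clusters and target Hox transcripts among others, and their mature strands are shown with the seed, bases 2 to 8, in capitals (RefSeq, GRCm38.p6). The miR-10 pair shares 1 seed and the miR-196 pair another. Mir10a lay 192.3 kb and Mir10b 274.3 kb from a summit. For miR-196a the distances were 189.0 kb at the Hoxb copy and 299.6 kb at the Hoxc copy, and Mir196b lay at 354.4 kb. Mir615, in the Hoxc cluster and with neither of these seeds, lay 290.4 kb from a summit.

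miR-10a-5p: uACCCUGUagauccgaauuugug

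miR-10b-5p: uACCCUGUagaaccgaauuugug

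miR-196a-5p: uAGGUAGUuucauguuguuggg

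miR-196b-5p: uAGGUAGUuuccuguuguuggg

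Other gene lists related to Hox biology had summits, in shares to be read against the 25.8% of all protein-coding genes with a summit within 10 kb and the 55.3% within 100 kb. Of 8 genes for Meis, Pbx and Pknox proteins, homeodomain partners that bind DNA together with Hox proteins, 3 had a summit within 10 kb (37.5%, 95% Wilson interval 13.7% to 69.4%, which includes the background) and 7 within 100 kb (87.5%). Meis1 had 4 summits, the highest with a score of 28.6. Pbx2 had 1 with 76.5 and Meis2 had 1 with 10.5. Of the 6 ParaHox genes, the sister group of the Hox genes, Pdx1 had a summit within 10 kb, with a score of 118.6, and 4 had one within 100 kb. Those 16.7% and 66.7% are shares of a small list, with an interval from 3.01% to 56.4% for the first. The intestinal genes Cdx1 and Cdx2 lay 29.5 and 36.8 kb from a summit.

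Other homeobox genes in clusters were at the background within 10 kb. Of the 12 Irx and Dlx genes 3 had a summit at that distance (25.0%, against 25.8% of protein-coding genes), namely Irx1, Irx2 and Irx5, with highest scores of 7.96, 19.7 and 9.03. A summit within 100 kb was found for 11 of 12 (91.7%, against 55.3%), Irx4 being at 142.0 kb. Of 11 islet homeobox genes 5 had a summit within 10 kb (45.5%, interval 21.3% to 72.0%, which includes the background) and 8 within 100 kb (72.7%). Nkx2-2 itself had 3 summits and Pax6 had 5. The median distances of the 4 lists were 64.4 kb (cofactors), 55.0 kb (ParaHox), 74.3 kb (Irx and Dlx) and 17.4 kb (islet homeobox), against 265.8 kb for the Hox genes. Pdx1 is in both the ParaHox and the islet list. The difference between the lists was not tested.

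Genes whose products set the chromatin of Hox clusters were also listed. Of 20 genes for Polycomb and trithorax proteins and Ctcf, 9 had a summit within 10 kb and 17 within 100 kb. These are 45.0% (95% Wilson interval 25.8% to 65.8%) and 85.0%, against 25.8% and 55.3% of protein-coding genes, and the interval reaches the background. Jarid2 and Cbx2, of the Polycomb complexes, had the highest scores, 45.0 and 39.6. Ezh2, the main methyltransferase of Polycomb repression, had a summit 155 bp from the gene with a score of 31.8. Its relative Ezh1 had one with a score of 15.8, and Men1, a partner of the trithorax methyltransferases, had one 25 bp from the gene with 13.5. Kmt2a, the trithorax methyltransferase that sustains Hox expression, had one with 10.2. The genes that flank the clusters, fixed as another list, had summits in 3 of 14 cases within 10 kb (21.4%) and 9 within 100 kb (64.3%), near the 25.8% and 55.3% of protein-coding genes. The 3 were Skap1, Hibadh and Atp5g3, the last of them 755.8 kb from Hoxd. Evx1 and Evx2, the homeobox genes at the posterior ends of Hoxa and Hoxd, lay 266.2 and 201.3 kb from a summit. The list does not hold every neighbour. Left out were, for example, Atp5g1 and Atp5g2, 118.6 kb from Hoxb and 250.1 kb from Hoxc, each with 2 summits within 10 kb. Calcoco2, 69.8 kb from Hoxb and with 0, was also left out.

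**Figure D5:**
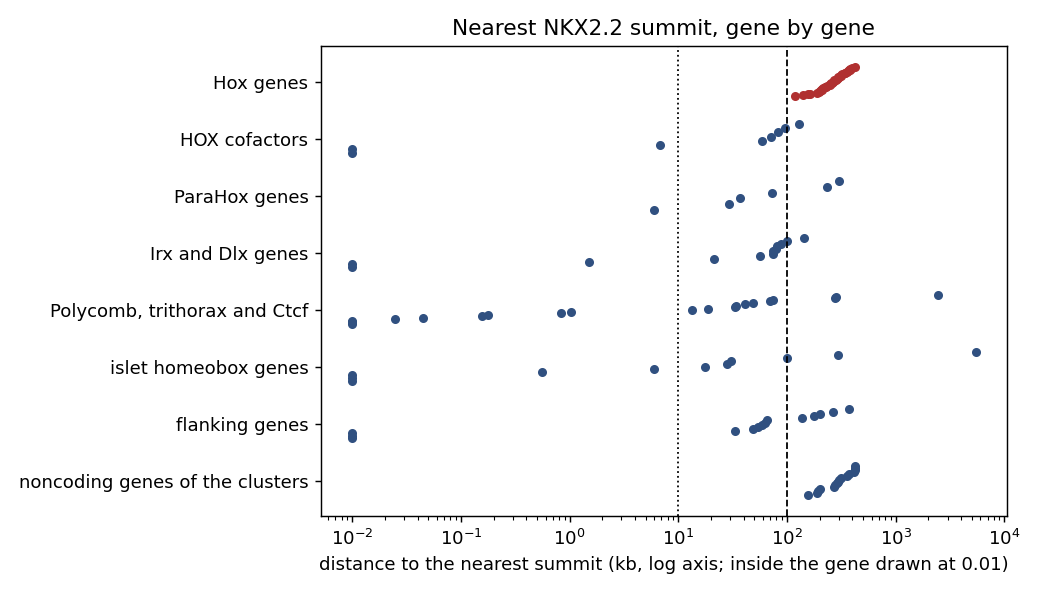
Distance in kb (log axis) from each gene to its nearest NKX2.2 summit, 1 point a gene, for the Hox genes (red) and the comparison lists (blue), with genes that hold a summit drawn at 0.01 kb and dotted and dashed lines at 10 and 100 kb. The Hox genes and the noncoding genes of the clusters all lie to the right of 100 kb, and each other list has points on both sides of it.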

How the data were processed

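Per the submitters' processing notes, FastQC, Bowtie2, MACS2 and the build mm10 were used; versions, duplicate handling and whether replicates were pooled are not given in the sources used here. The deposited list holds 1 value per summit, taken as −log10 of the MACS2 q-value (the lowest lies just above that of q = 0.01); it is called the score. 4 summits on contigs were left out. Positions count from 1. Since mm10 is the assembly GRCm38, summits were compared with RefSeq genes and promoters of GRCm38.p6; 22 of 38 members had a promoter entry. Distances run from the nearer gene end, or from the start for promoters, and were tested on simulated positions. Tiled windows start at the first gene or summit of each chromosome. Wilson intervals are 95% and cover counting error.

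No test was made, since the list holds no value per sample and summits and genes are not replicates. All 38 members are given; at most 5 genes with a summit per comparison list, by highest score, were named, and genes outside that were named after their values were seen. Members and lists were chosen with earlier results of these data known, and the backgrounds of similar gene length and of gene-rich windows after seeing the data. Prac1 had no entry; some other genes are not reported here. Alternatives were score minimums of 5 and 10, merging within 500 bp, other distances, gene sets and motifs. The computation ran in Python 3.11.15 with pandas 2.3.3 and numpy 2.4.6, intervals came from scipy 1.17.1, and plots from matplotlib 3.10.9.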

Additional observations from a re-analysis of the deposited data

How the results depend on the processing

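No paired analysis was possible because summits carry no values by library, nor could a replicate be left out. The count of Hox genes with a summit within 10 kb stayed 0 in the gene body and at 1, 5 and 50 kb, at score minimums of 5 and 10, and with summits within 500 bp merged. At 100 kb it was 0 under the same score minimums and merging. None of these settings adds a summit or reaches beyond 100 kb. With 0 summits in that range, each of these counts was fixed at 0 and is no separate support. At larger distances, chosen after seeing the data, the count was 6 at 200 kb, 25 at 300 kb and 38 at 500 kb. A score minimum of 10 moved the nearest Hox gene from Hoxb13 (118.2 kb) to Hoxb1 (141.4 kb). The density within 100 kb was likewise bound to stay 0 per Mb, against 2.73 for the list, 1.77 at a score minimum of 10 and 3.13 for the autosomes other than 14.

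The background share of protein-coding genes, 25.8%, was 23.7% at a score minimum of 5, 18.2% at 10, 13.4% in the gene body, 19.2% at 1 kb, 22.3% at 5 kb, 43.8% at 50 kb and 16.7% over all annotated genes. Hox promoters with the NK2 core numbered 9 with CACTT, 6 with CCACTT, 3 with TNAAGTG and 4 with CCACTC. The side of the background depended on the motif. The Hox share was below that of all promoters with CACTT (37.5% against 46.4%) and CCACTC (16.7% against 19.0%). With CCACTT (25.0% against 16.9%) and TNAAGTG (12.5% against 11.5%) it was above. No median score of summits within 100 kb of a Hox gene could be given, at any distance or score minimum planned, since there were 0 such summits. The unknown depth limits a missing summit to saying that no peak was called.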

Other observations

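Several gene families flank more than 1 Hox cluster, because the clusters and their neighbours arose by duplication of the same ancestral region. The families and members below were chosen after their values were seen. Of 22 such neighbours in 8 families, 9 had a summit within 10 kb, where 25.8% of all protein-coding genes had one. They were taken widely, from Evx2 at 6.71 kb from its cluster to Creb5 at 1026.3 kb, so not all lie next to a cluster. Since they were chosen with their values known, this count is a description and no contrast for the Hox genes. All 3 genes for subunit c of the mitochondrial ATP synthase had one close to a transcription start. At Atp5g2, beside Hoxc, it lay 83 bp from the start with a score of 50.6. At Atp5g3, on the Hoxd chromosome 755.8 kb from the cluster, it lay 55 bp from the start with a score of 16.2. At Atp5g1, beside Hoxb, it lay 514 bp from the start with a score of 5.65.

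Members of the other families differed from each other. Atf2 (775.5 kb from Hoxd) and Atf7 (295.7 kb from Hoxc), genes for related leucine zipper factors, had highest scores of 50.03 and 49.2. Their relative Creb5, 1026.3 kb from Hoxa, lay 265.9 kb from a summit. Skap1 near Hoxb had 3 summits within 10 kb and Skap2 near Hoxa had 0, at 177.2 kb. Of the 4 genes of the Nfe2 family, which encode stress-response and blood cell regulators, Nfe2l2 had a summit, 58 bp from its start with a score of 8.14. Nfe2l2 lies 910.4 kb from Hoxd. Cbx3 and Hnrnpa2b1, which lie head to head 678.7 and 692.4 kb from Hoxa, shared 1 summit with a score of 8.50. Their relatives Cbx1, Cbx5, Hnrnpa1 and Hnrnpa3 had 0 within 10 kb. Calcoco1, Calcoco2, Evx1 and Evx2 also had 0 within 10 kb. No test was made of these differences.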
